A study of Mus musculus with 24 samples.

Results

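The collagen genes of the mouse were followed through sorted spermatogonia of 7-day-old (P7) testes, in an expression table made for loss of Zbtb16 and another made for loss of Sox3. Members were all features whose gene symbol reads Col, a number, a and a number. The rule gave 44 of the 23177 features of the Zbtb16 table and 43 of the 21688 features of the Sox3 table, the last without Col19a1. Each table held 12 libraries of total RNA-seq in 4 groups of 3. Cells came from testes of 3 mice pooled per isolation and were taken by immunomagnetic cell sorting with antibodies to THY1, for undifferentiated spermatogonia (uSPG), or to KIT, for differentiating spermatogonia (dSPG). The Zbtb16 groups were WT and Zbtb16-null (luxoid, lu/lu) mice, each as THY1+ and KIT+ cells. The Sox3 groups were WT mice and conditional knockouts (cKO) in which Ddx4-Cre, active in germ cells, removed a floxed Sox3 gene, so that somatic cells of the cKO kept it. All mice were on a C57BL/6J background. The study states that Zbtb16-null mice were compared with WT and heterozygous littermates, while its RNA-seq methods name WT littermates for both mutants. The labels say WT. P-values here measure only the spread between these libraries, part of which may be technical.

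Collagens are secreted proteins wound from chains that associate inside the cell, each chain made by its own gene. Fibrillar collagens, led by types I and III, form the banded fibres of connective tissue, the chains of type IV form the sheet of every basement membrane, and the chains of type VI form beaded filaments that link fibres to basement membranes. In the testis the tubule wall is a basement membrane laid down by Sertoli and peritubular cells, around which lie peritubular myoid cells, Leydig cells, vessels and fibroblast-like stroma, and spermatogonia rest on its inner face. Genes were placed in 9 classes by structure: 11 fibrillar, 6 basement membrane, 6 beaded filament, 9 fibril-associated, 3 network-forming, 1 anchoring fibril, 2 multiplexin and 4 transmembrane genes, and 2 others.

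Values are FPKM, reads of a gene scaled to the length of its model and to the mapped reads of the library, as the authors deposited them. Depth was 25.95 to 35.19 M reads per library in the Zbtb16 table, 28.25 to 31.89 M reads in replicate 1 of the Sox3 table and 11.02 to 14.92 M reads in its other libraries. Zbtb16 stood at 55.7, 58.7 and 42.0 FPKM in replicates 1, 2 and 3 of WT THY1+ cells and at 17.5, 18.2 and 15.6 in null THY1+ cells. Sox3 stood at 6.28 to 24.4 FPKM in the 6 WT libraries of its table and at 0 to 0.082 in the 6 cKO libraries. The sorting markers followed the labels in the Zbtb16 table, where Thy1 stood at 3.29 to 4.67 FPKM in THY1+ and 0.156 to 0.666 in KIT+ libraries. They went against the labels of the 6 WT libraries of the Sox3 table, where Thy1 stood at 0.213 to 0.254 in the group labelled THY1+ and at 3.59 to 4.06 in the group labelled KIT+, and Kit at 45.6 to 80.1 and 13.0 to 18.8. Those groups are called WT labelled THY1+ and WT labelled KIT+ here, and were kept as labelled. Markers of somatic cells were detected in every group of both tables, none being at 0 throughout a group. Leydig cell markers (6 genes) summed to 83.1 to 119 FPKM in WT THY1+ and 1215 to 2272 in WT KIT+ cells, macrophage markers (9 genes) to 803 to 922 and 6.51 to 8.15, and peritubular and stromal markers (11 genes) to 363 to 515 and 156 to 253. Germ cell markers (5 genes) summed to 866 to 1036 and 830 to 1014. In such bulk samples fewer cells of a type and less RNA per cell cannot be told apart.

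The most abundant collagen RNAs were those of the fibrils, the basement membrane and the beaded filaments. In the Zbtb16 table, over its 12 libraries, 11 members had a mean of at least 10 FPKM, 20 lay between 1 and 10 and 13 were under 1. The 6 highest, Col3a1, Col6a1, Col4a1, Col1a2, Col1a1 and Col4a2, made up 68.6% of the summed collagen FPKM there and 71.1% in the Sox3 table, where they held the same order. Fibrillar genes gave 49.6% of the sum in one and 48.8% in the other, beaded filament genes 19.5% and 19.9%, and basement membrane genes 18.0% and 19.6%. FPKM of Col1a2, Col3a1 and Col6a2 are low for their transcripts, since the gene models used (12136, 8378 and 8326 bases) are longer than the longest coding transcript (5348, 5564 and 4653 bases). The model of Col4a4 (6477 bases) is instead shorter than its longest coding transcript (10108 bases). Models were longer than that transcript in other members too, such as Col26a1 (5844 and 2781 bases) and Col27a1 (13022 and 7612 bases). Further examples were Col13a1 (4605 and 3162 bases) and Col5a2 (9591 and 6625 bases). The order of members and the absolute ratios between them therefore hold for the deposited FPKM only. The lowest member, Col19a1, a fibril-associated collagen, stood at 0.0224 to 0.0916 FPKM and was not tested. Summed over the members, collagen FPKM reached 536, 555 and 287 in WT THY1+ cells, 239, 600.2 and 320.0 in WT KIT+, 233, 511 and 212 in null THY1+ and 362, 981 and 533 in null KIT+. Replicate 2 was the highest library in each of these groups, and in WT THY1+ cells replicate 3 stood lowest.

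**Figure D1:**
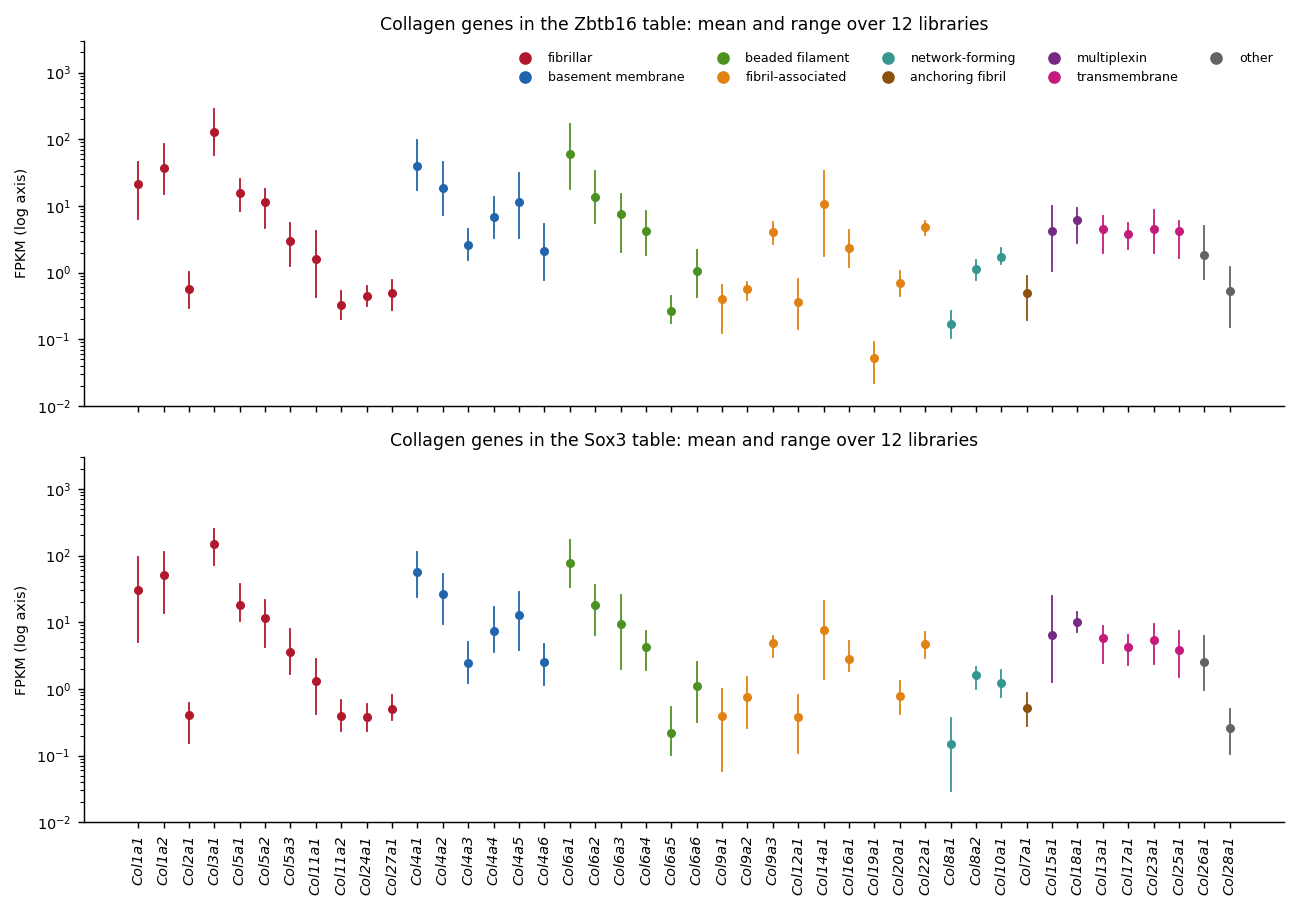
Level of each collagen gene in FPKM on a log axis, as the mean over 12 libraries (points) with the lowest and highest library (bars), coloured by class, in the Zbtb16 table (top) and the Sox3 table (bottom). Col3a1 was highest in both tables, at means of 130 and 151 FPKM, and Col19a1, shown in the Zbtb16 table, lowest at 0.0522.

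The spread over libraries was wide for the abundant chains. Col3a1, the chain of type III fibrils of soft tissue, stood at 164, 157 and 87.1 FPKM in WT THY1+, 70.6, 171 and 96.7 in WT KIT+, 63.0, 133 and 57.4 in null THY1+ and 112, 285 and 167 in null KIT+ cells. Col1a1, the major chain of type I collagen, stood at 36.6, 45.3 and 14.5 FPKM in WT THY1+, 6.33, 22.5 and 7.02 in WT KIT+, 13.3, 41.8 and 9.50 in null THY1+ and 9.40, 35.5 and 11.9 in null KIT+ cells. Col1a2, the other type I chain, stood at 55.5, 52.9 and 24.1 FPKM in WT THY1+, 15.6, 46.5 and 19.6 in WT KIT+, 18.7, 51.5 and 15.2 in null THY1+ and 25.5, 85.6 and 37.6 in null KIT+ cells. For these fibrillar genes the libraries of the 4 groups overlapped, and replicate 2 was the highest KIT+ library of each genotype. Among basement membrane genes, Col4a1 stood at 42.5, 50.4 and 20.0 FPKM in WT THY1+, 17.2, 61.5 and 23.2 in WT KIT+, 17.3, 48.8 and 17.1 in null THY1+ and 27.1, 98.9 and 44.8 in null KIT+ cells. Its partner Col4a2, with which it forms the most widespread type IV collagen, stood at 23.0, 26.8 and 9.73 FPKM in WT THY1+, 8.31, 28.8 and 9.89 in WT KIT+, 8.59, 24.2 and 7.41 in null THY1+ and 12.6, 45.6 and 18.5 in null KIT+ cells. In all 4 groups replicate 2 held the highest level of both genes of this pair. Col6a1, which with Col6a2 and Col6a3 forms type VI collagen, stood at 51.5, 51.8 and 28.3 FPKM in WT THY1+, 36.1, 97.4 and 53.5 in WT KIT+, 18.1, 48.4 and 19.5 in null THY1+ and 58.6, 170.1 and 93.7 in null KIT+ cells. Col6a2 stood at 16.1, 18.5 and 8.43 FPKM in WT THY1+, 6.34, 19.8 and 8.73 in WT KIT+, 5.82, 15.4 and 5.61 in null THY1+ and 9.78, 32.9 and 16.4 in null KIT+ cells. Col6a3, the longest of these chains, stood at 13.9, 14.9 and 5.47 FPKM in WT THY1+, 2.03, 6.40 and 2.50 in WT KIT+, 5.85, 15 and 4.47 in null THY1+ and 3.20, 12.7 and 5.62 in null KIT+ cells. In each genotype the highest library for Col6a3 was a THY1+ library, whereas for Col6a1 it was a KIT+ library. Col14a1, the highest of the fibril-associated class, is described with the sorted fractions. Other classes were lower. Col18a1, the multiplexin that is the source of endostatin, stood at 8.40, 8.26 and 4.89 FPKM in WT THY1+, 5.41, 9.41 and 5.46 in WT KIT+, 3.70, 4.57 and 2.82 in null THY1+ and 5.76, 8.69 and 5.74 in null KIT+ cells. Col10a1, the network-forming collagen known from growth plate cartilage, stood at 1.95, 2.31 and 2.06 FPKM in WT THY1+, 1.39, 1.53 and 1.88 in WT KIT+, 1.72, 1.5 and 1.72 in null THY1+ and 1.56, 1.35 and 1.68 in null KIT+ cells. Col10a1 was the highest of its class and its values spread little, between 1.35 and 2.31 FPKM. Among the transmembrane collagens Col23a1 was highest, at 5.22, 5.51 and 3.92 FPKM in WT THY1+, 1.97, 5.16 and 3.75 in WT KIT+, 2.52, 5.34 and 2.93 in null THY1+ and 3.51, 8.63 and 6.47 in null KIT+ cells. Col26a1, a short collagen first described in testis and ovary, stood at 1.34, 1.25 and 1.05 FPKM in WT THY1+, 1.35, 2.47 and 1.31 in WT KIT+, 0.802, 1.76 and 0.931 in null THY1+ and 1.98, 4.96 and 2.65 in null KIT+ cells.

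The first comparison asks which collagen genes differ in cells without ZBTB16. In THY1+ uSPG 1 of the 43 collagens tested was called, Col28a1, which was higher in the null (limma on log2(FPKM + 0.1), adjusted p at most 0.05 and at least 1.5-fold, adjusted over all 22374 genes tested). This was 2.33% of the collagens, beside 3.98% of all genes tested. Col28a1 encodes a collagen with von Willebrand factor A domains that is known from peripheral nerve. It stood at 0.421, 0.422 and 0.345 FPKM in WT THY1+ cells and at 1.2, 1.2 and 0.984 in null THY1+ cells. The null libraries all lay above the WT libraries, by a log2 change of 1.31 (SE 0.149, limma adjusted p = 0.000985), and the change lay between 1.23 and 1.39 when any of the 6 libraries was left out. In KIT+ dSPG, where 0.259% of all genes tested were called, Col28a1 was again the 1 collagen called. It stood at 0.165, 0.168 and 0.152 FPKM in WT KIT+ and at 0.394, 0.411 and 0.410 in null KIT+ cells, groups that did not overlap (log2 change 0.95, SE 0.149, limma adjusted p = 0.0281). That call rested on the full set of libraries, since no fit without 1 of these 6 libraries kept it, with changes of 0.92 to 0.97. The changes of Col28a1 in the 2 fractions did not differ past the threshold (interaction -0.36 on the log2 scale, limma adjusted p = 0.333). Within each genotype KIT+ cells held less of its RNA than THY1+ cells. In the Sox3 table Col28a1 stood at 0.106 to 0.493 FPKM over all 12 libraries and its averaged change in the cKO was -0.12 (limma adjusted p = 0.67).

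The bases before the start of Col28a1 are shown because it was the collagen called in null cells of both fractions. In the RefSeq annotation of GRCm38.p6 the 250 bases before its start lie at chr6:8192618-8192867 on the minus strand, outside any exon, and read, with motif matches in capitals:

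Col28a1: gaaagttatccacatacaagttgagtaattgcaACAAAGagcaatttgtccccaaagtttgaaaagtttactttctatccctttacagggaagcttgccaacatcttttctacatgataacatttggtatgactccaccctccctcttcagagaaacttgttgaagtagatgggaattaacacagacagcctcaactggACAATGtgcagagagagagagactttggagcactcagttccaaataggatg

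Motifs were searched on both strands, and the matches shown do not overlap. The letters ACAAAG, which SOX proteins are known to bind, were searched first. A close form searched with them was ACAATG. The promoter motifs were the CCAAT box, the GC box as GGGCGG and the TATA box as TATAAA. The capitals mark ACAAAG at base 34 and ACAATG at base 200 of the run. Over 32851 promoter windows of 300 bases, ACAAAG was held by 18.7% and ACAATG by 12.6%, and by 5 and 1 of 38 windows of 35 collagen genes, and a match is a description of letters only. CCAAT was held by 37.4% of all windows and 13 collagen windows, GGGCGG by 35.7% and 23, and TATAAA by 13.6% and 5.

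The other collagens did not pass the threshold in THY1+ cells, although most estimates lay below 0. Of the 43 tested, 8 had a fitted change above 0 in null THY1+ cells, with a median of -0.44 beside -0.03 over all genes tested. An unadjusted p under 0.05 was held by 5 of the 43, beside 5325 of all 22374 genes tested. Col18a1 stood at 3.70, 4.57 and 2.82 FPKM in null THY1+ cells, all below the 8.40, 8.26 and 4.89 of WT THY1+ cells (log2 change -0.92, limma adjusted p = 0.0848). Col2a1, the chain of cartilage fibrils, stood at 1.02, 0.980 and 0.704 FPKM in null and 0.454, 0.538 and 0.510 in WT THY1+ cells (0.72, limma adjusted p = 0.076). Col6a5, a minor chain of type VI collagen, had a log2 change of 0.57 (limma adjusted p = 0.0607). With the replicate number as a block (replicate block), fitted over all 12 libraries, 3 collagens were called in THY1+ cells. Col28a1 and Col2a1 were higher and Col18a1 lower, and 1980 of 22374 genes were called in all instead of 890. Same-numbered null and WT libraries of this comparison correlated at 0.133, 0.344 and 0.475, and same-numbered libraries across fractions at -0.028 to 0.519. Col15a1, a multiplexin of the basement membrane zone, stood at 9.39, 8.30 and 3.29 FPKM in WT THY1+ cells and at 3.14, 10.1 and 2.01 in null THY1+ cells. The groups overlapped, with null replicate 2 highest of all (log2 change -0.65, SE 0.654, limma adjusted p = 0.576).

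In KIT+ dSPG the fitted changes leaned the other way. Of the 43 collagens 37 had a fitted change above 0, with a median of 0.54 beside 0.01 over all genes tested. An unadjusted p under 0.05 was held by 4 of the 43, beside 3863 of all 22374 genes tested. Of these 4, Col28a1 passed the adjustment. Col26a1 stood at 1.35, 2.47 and 1.31 FPKM in WT and 1.98, 4.96 and 2.65 in null KIT+ cells (log2 change 0.82, limma adjusted p = 0.281). Col25a1, a transmembrane collagen, stood at 1.65, 4.23 and 3.32 in WT and 3.71, 5.80 and 6.01 in null KIT+ cells (0.80, limma adjusted p = 0.211), and in each case 1 null library lay within the WT range. With the replicate block, 513 of 22374 genes were called instead of 58, and Col28a1 stayed the collagen called. Tested directly, the difference of the genotype changes between fractions called 0 of the 43 collagens by limma, beside 0.0313% of all genes tested. It had an unadjusted p under 0.05 in 9 of the 43 and in 5014 of all 22374 genes tested. The median of that difference over the collagens was 0.88, and 37 of the 43 were above 0. The block changed this outcome: with the replicate block 15 of the 43 collagens were called, all with a difference above 0 (0.87 to 1.60 on the log2 scale). Over all genes, 2756 of the 22374 tested were then called instead of 7. Same-numbered libraries were paired by their correlations within each fraction, but not in every case across fractions, so whether the fractions differ in the genotype change rests on that choice. The sum of the peritubular and stromal markers was 363 to 515 FPKM in WT and 235 to 316 in null THY1+ cells, and 156 to 253 in WT and 244 to 433 in null KIT+ cells. By limma 0 of the 11 were called in either fraction, with 4 at an unadjusted p under 0.05 in each, 1 of 11 fitted higher in THY1+ cells and 10 of 11 in KIT+ cells. Germ cell markers summed to 866 to 1036 FPKM in WT and 988 to 1279 in null THY1+ cells (5 of 5 fitted higher, median 0.32, and 0 called by limma, 3 at an unadjusted p under 0.05). Leydig cell markers summed to 83.1 to 119 and 49.8 to 79.6 in the same groups. Fitted higher in null THY1+ cells were 0 of 6 Leydig, 2 of 8 endothelial, 0 of 8 Sertoli and 0 of 9 macrophage markers. In null KIT+ cells these were 6 of 6, 7 of 8, 5 of 8 and 6 of 9, with 1 of 5 germ cell markers. Over all genes tested the shares were 46.7% and 51%, and 5325 and 3863 of 22374 had an unadjusted p under 0.05. Of these lists limma called only Cd68, lower in null THY1+ cells. The part of these markers in the collagen values, Col28a1 included, was not tested.

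**Figure D2:**
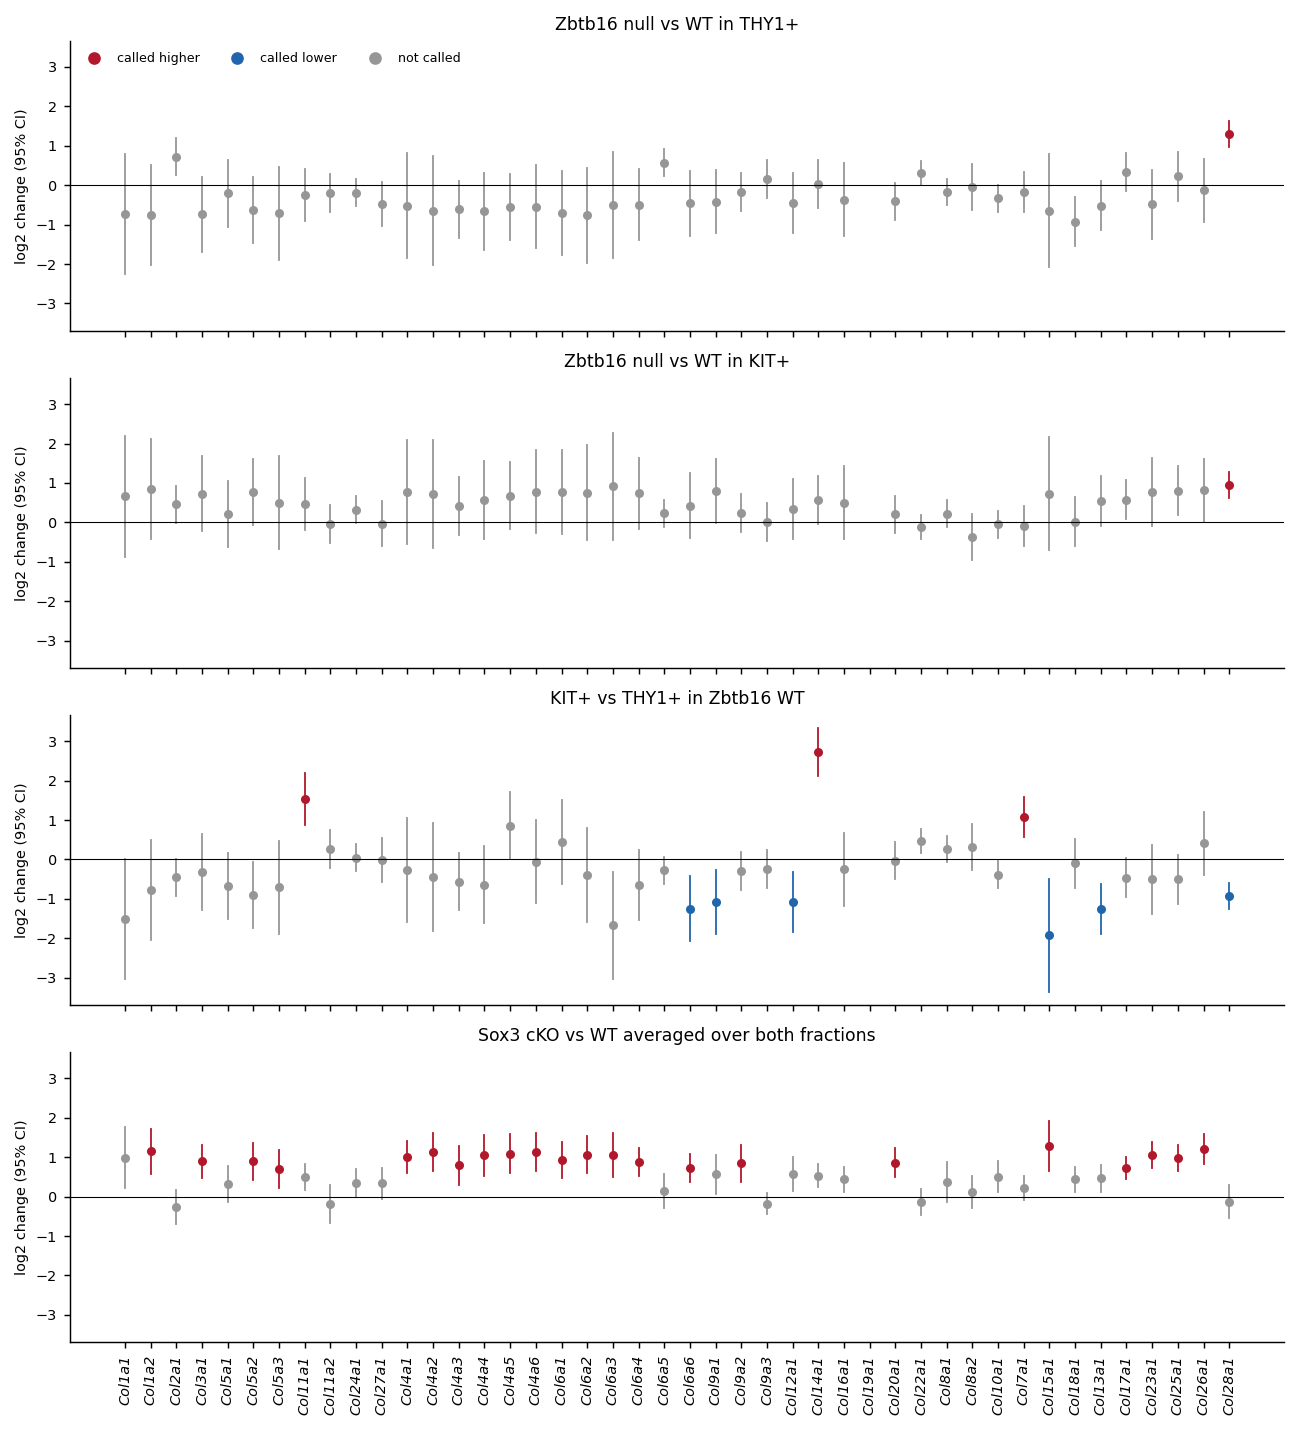
Log2 change of each tested collagen gene in 4 comparisons, as the limma estimate (points) with its 95% confidence interval (bars), red where called higher, blue where called lower and grey where not called; Col19a1 has no value. Col28a1 alone is coloured in the upper panels, at 1.31 and 0.95, while 9 genes are coloured for KIT+ against THY1+ cells and 22 for the Sox3 cKO.

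The sorted fractions differed in collagens of several classes. Between WT KIT+ and WT THY1+ cells of the Zbtb16 series, 9 of 43 collagens were called (20.9%, beside 21.2% of all genes tested), 3 higher and 6 lower in KIT+ cells. That share is near the background, so the members are described one by one. With each library centred on its median the split was 5 higher and 5 lower. Higher in KIT+ cells was Col14a1, a fibril-associated collagen of fibril surfaces, at 2.28, 2.51 and 1.80 FPKM in THY1+ and 10.7, 20.2 and 15.4 in KIT+ cells (log2 change 2.73, SE 0.276, limma adjusted p = 3.15e-05). Col11a1, a fibrillar chain that controls fibril width, stood at 0.564, 0.706 and 0.723 FPKM in THY1+ and 1.37, 2.95 and 2.32 in KIT+ cells (1.54, SE 0.301, limma adjusted p = 0.00293). Col7a1, the chain of anchoring fibrils under epithelia, stood at 0.218, 0.414 and 0.266 FPKM in THY1+ and 0.656, 0.827 and 0.687 in KIT+ cells (1.07, SE 0.232, limma adjusted p = 0.00537). For each of these genes every KIT+ library lay above every THY1+ library, and the call was kept without any 1 of the 6 libraries. The null cells showed the same order, with Col14a1 at 1.98, 2.51 and 2.20 FPKM in THY1+ and 15.8, 33.4 and 20.9 in KIT+ cells, Col11a1 at 0.426, 0.677 and 0.526 and 2.05, 4.15 and 3.02, and Col7a1 at 0.240, 0.320 and 0.193 and 0.555, 0.876 and 0.610.

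Lower in WT KIT+ cells were Col15a1, Col6a6, Col13a1, Col9a1, Col12a1 and Col28a1. Col15a1 stood at 9.39, 8.30 and 3.29 FPKM in THY1+ and 1.06, 3.10 and 1.23 in KIT+ cells, with no overlap (log2 change -1.93, SE 0.654, limma adjusted p = 0.0461). Col13a1, a transmembrane collagen of cell adhesion sites, stood at 6.60, 7.02 and 6.13 in THY1+ and 1.95, 3.96 and 2.57 in KIT+ cells (-1.25, limma adjusted p = 0.00749). Col28a1 was lower in KIT+ cells by a log2 change of -0.92 (limma adjusted p = 0.000883). These last 2 kept their calls without any 1 of the 6 libraries. Col6a6, a beaded filament chain, stood at 1.57, 2.18 and 1.1 FPKM in THY1+ and 0.487, 0.976 and 0.434 in KIT+ cells (-1.25, limma adjusted p = 0.0284). The fibril-associated Col9a1 stood at 0.577, 0.657 and 0.403 and 0.125, 0.286 and 0.214 (-1.08, limma adjusted p = 0.0453), and Col12a1, a collagen of tension-bearing tissue, at 0.525, 0.791 and 0.366 and 0.145, 0.285 and 0.198 (-1.07, limma adjusted p = 0.0386). The groups of these genes did not overlap, but the calls of Col15a1, Col6a6, Col9a1 and Col12a1 were each lost without WT THY1+ replicate 1 or 2 or without WT KIT+ replicate 1 or 3, with 5 to 12 collagens called over the 6 fits that left out a library. Peritubular and stromal markers were also lower in KIT+ cells (7 of 11 called), Leydig markers higher (6 of 6) and macrophage markers lower (9 of 9), and their part in these collagen values was not tested.

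The promoter of Col11a1 is shown for the collagens called higher in KIT+ cells. It lies at chr3:114030290-114030539 on the plus strand of GRCm38.p6 (RefSeq), the 250 bases before the start:

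Col11a1: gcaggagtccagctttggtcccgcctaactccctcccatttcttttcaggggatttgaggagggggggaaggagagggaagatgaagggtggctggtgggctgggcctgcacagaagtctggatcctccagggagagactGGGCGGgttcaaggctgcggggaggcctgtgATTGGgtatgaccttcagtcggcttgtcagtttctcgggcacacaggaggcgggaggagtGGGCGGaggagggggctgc

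The capitals mark GGGCGG at bases 141 and 232 and, at base 172, CCAAT read on the other strand. The window had a GC content of 62.4%, against 40.4% in the 250 bases shown for Col28a1.

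The cKO cells of the Sox3 table were sorted in the same way. Between cKO KIT+ and cKO THY1+ cells, whose sorting markers follow their labels, 13 of 43 collagens were called (30.2%, beside 22.7% of all genes tested), 7 higher and 6 lower in KIT+ cells. These comparisons share no library with those of the Zbtb16 table. Of the 9 genes called there, 8 were also called here and in the same direction, which is 88.9% of the 9 and 61.5% of the 13: Col14a1, Col11a1 and Col7a1 as higher, and Col15a1, Col6a6, Col13a1, Col9a1 and Col12a1 as lower in KIT+ cells. The share of all genes that repeated in this way was not counted, so the repeat is not read as particular to collagens. Leydig (6 of 6) and macrophage (9 of 9) markers repeated their directions too. Endothelial markers did not: 2 of 8 were lower in KIT+ cells of the Zbtb16 WT (median -0.14), and 5 of 8 higher in those of the cKO (median 1.90). Peritubular and stromal markers were called lower in 7 of 11 and 1 of 11. Col14a1 stood at 1.44, 1.86 and 2.05 FPKM in cKO THY1+ and 18.4, 20.9 and 15 in cKO KIT+ cells (log2 change 3.27, SE 0.187, limma adjusted p = 2.02e-07). Col11a1 stood at 0.671, 0.592 and 0.426 and 2.84, 2.68 and 2.62 (2.10, limma adjusted p = 1.91e-05), and Col7a1 at 0.282, 0.365 and 0.368 and 0.770, 0.870 and 0.770 (1.05, limma adjusted p = 0.00175). In all 3 genes the KIT+ libraries stood clear of the THY1+ libraries. Others called here as higher in KIT+ cells were Col4a5 (7.85, 13.3 and 5.58 against 28.5, 27.6 and 23.6 FPKM, log2 change 1.65), Col6a1 (1.17), Col26a1 (1.1) and the network-forming Col8a1 (1.07). Col8a1 lost its call in 5 of 6 fits without a library and Col6a1 in 1, without cKO THY1+ replicate 3. Lower in KIT+ cells was Col6a6 (-1.55), at 2.19, 2.51 and 1.82 FPKM in THY1+ and 0.615, 0.610 and 0.790 in KIT+ cells. Col15a1 was lower too (-1.32, limma adjusted p = 0.0309), a call lost without cKO THY1+ replicate 2 or cKO KIT+ replicate 1 or 2. The others that were lower were Col9a1 (-1.18), Col12a1 (-1.17), Col13a1 (-0.69) and Col9a3 (-0.62), and of these only Col12a1 was called in all 6 fits without a library. With the shallower replicates 2 and 3 alone 4 collagens were called, Col11a1, Col14a1, Col26a1 and Col6a6. In the same contrast 6 of 6 Leydig and 5 of 8 endothelial markers were higher and 9 of 9 macrophage markers lower in KIT+ cells, with 1 of 11 peritubular and stromal markers lower, and their part in these collagen values was not tested.

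Between the WT groups of the Sox3 table as labelled, 10 of 43 collagens were called (23.3%, beside 19.7% of all genes tested), 7 higher and 3 lower in WT labelled KIT+ cells. With each library centred on its median the split was 5 and 5. The 8 genes shared with the fractions above were all called here in the opposite direction. Leydig (6 of 6) and macrophage (9 of 9) markers were reversed as well, and the share of all genes reversed was not counted. Col14a1 stood at 11.5, 8.41 and 8.10 FPKM in WT labelled THY1+ and 1.42, 1.67 and 1.81 in WT labelled KIT+ cells (log2 change -2.43, limma adjusted p = 2.42e-06). Col11a1 stood at 1.82, 1.26 and 1.37 and 0.50, 0.541 and 0.427 (-1.42), and Col7a1 at 0.667, 0.605 and 0.536 and 0.291, 0.368 and 0.286 (-0.76). Higher in WT labelled KIT+ cells were Col15a1 (1.37), Col6a3 (1.29), Col9a1 (1.24), Col6a6 (1.2), Col13a1 (1.15), Col5a2 (0.95) and Col12a1 (0.91). Of these, Col15a1 and Col5a2 were called in 2 and Col6a3 in 3 of the 6 fits without a library. Collagens thus went against the labels of these 6 libraries in the same sense as Thy1 and Kit.

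**Figure D3:**
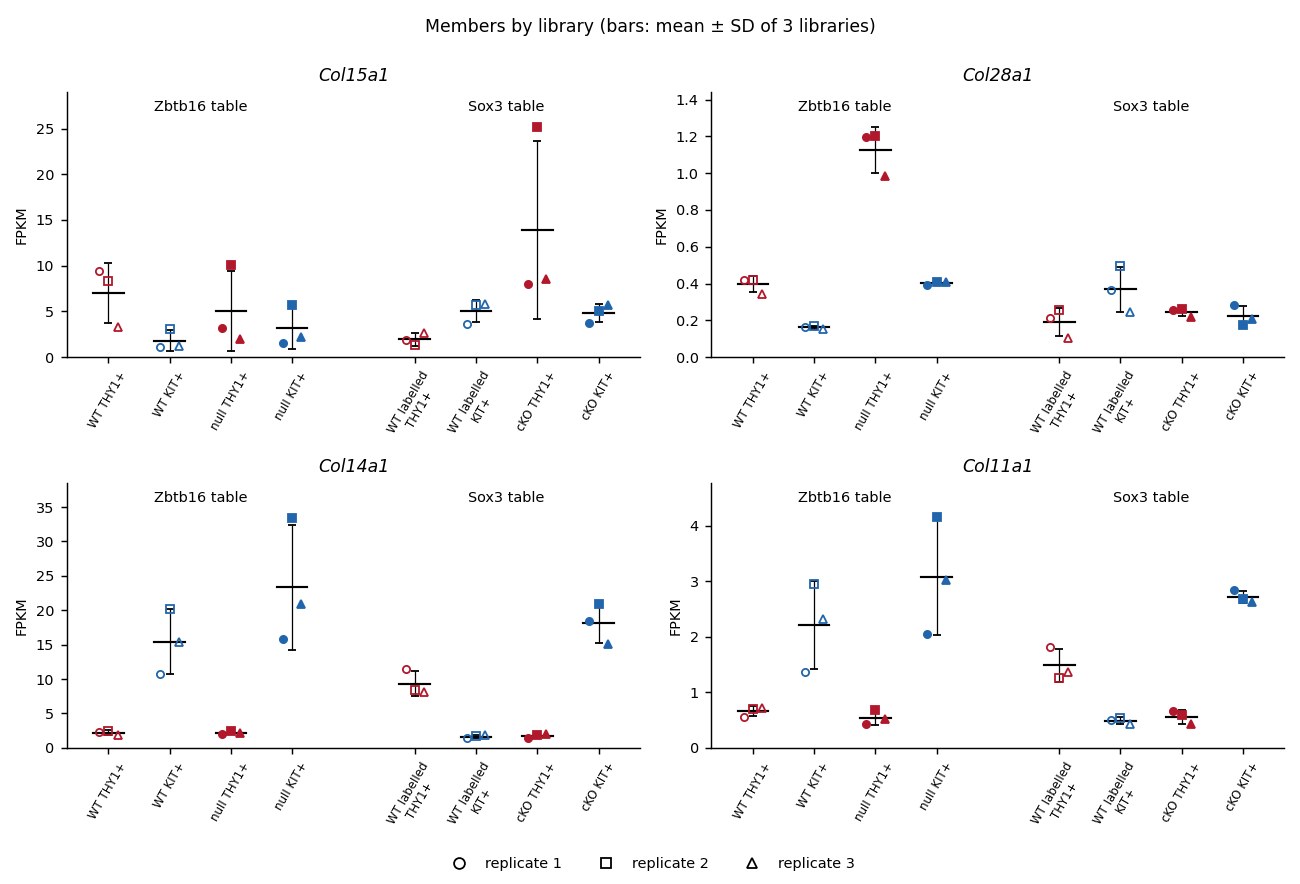
FPKM of Col15a1, Col28a1, Col14a1 and Col11a1 in each library of both tables (circle, square and triangle for replicates 1, 2 and 3; open WT, filled null or cKO; red labelled THY1+, blue labelled KIT+), with the mean and SD of 3 libraries. Col28a1 is raised in Zbtb16-null cells to 0.984 to 1.2 in THY1+, Col15a1 is highest in cKO THY1+ replicate 2 at 25.1, and Col14a1 and Col11a1 are high in KIT+ cells except in the Sox3 WT groups, where the group labelled THY1+ is high.

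Chains of 1 collagen type, and Col3a1 of type III with Col1a1 of type I, were compared within each library. The measure was the ratio of their FPKM, which no scaling between libraries changes. In WT THY1+ cells Col6a3 stood at 0.250 ± 0.0496 of the FPKM of Col6a1 (SD, n = 3) and in WT KIT+ cells at 0.0563 ± 0.00948. In null cells the ratio was 0.288 ± 0.0513 in THY1+ and 0.0631 ± 0.0102 in KIT+ cells (SD, n = 3). Every THY1+ library lay above every KIT+ library, by 2.16 on the log2 scale averaged over genotypes (exact permutation test of fraction within genotype over 400 arrangements, two-sided, p = 0.005, the smallest it allows, adjusted p = 0.007 over 7 ratios). The genotypes overlapped within each fraction. The ratio of Col6a1 to Col6a2 was 3.11 and 3.24 in WT and null THY1+ cells and 5.58 and 5.62 in WT and null KIT+ cells (log2 difference 0.82). The ratio of Col1a1 to Col1a2 was 0.705 and 0.716 in THY1+ and 0.416 and 0.366 in KIT+ cells (-0.86), and that of Col3a1 to Col1a1 was 4.66 and 4.66 in THY1+ and 10.8 and 11.3 in KIT+ cells (1.25). The ratio of Col4a5 to Col4a6 was 3.76 and 3.88 in THY1+ and 6.59 to 7.19 in KIT+ cells (0.85). Each of these 4 ratios reached the same exact permutation p of 0.005 and adjusted p of 0.007, and the exact p stayed at 0.005 to 0.01 without any 1 of the 12 libraries. The fractions also differed in Leydig, macrophage and stromal markers, and the part of such cells in the ratios was not tested.

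The widespread type IV pair kept a steadier ratio. Col4a1 to Col4a2 was 1.93 ± 0.109 in WT THY1+, 2.18 ± 0.143 in WT KIT+, 2.12 ± 0.166 in null THY1+ and 2.25 ± 0.149 in null KIT+ cells (SD, n = 3). The log2 difference between fractions was 0.13 (exact permutation p = 0.035, adjusted p = 0.0408), and it passed the threshold in 6 of the 12 fits without 1 library. Col4a3 to Col4a4, chains of the thick basement membrane of kidney and testis, had ratios of 0.393 and 0.403 in THY1+ and 0.412 and 0.373 in KIT+ cells, with a log2 difference of -0.02 (exact permutation p = 0.84). The genes of each type IV pair lie head to head. On GRCm38 Col4a1 (chr8:11198423-11312826, minus strand) and Col4a2 (chr8:11312805-11449287, plus strand) overlap at their starts, so reads there could be shared if strand was not used in counting. Col4a5 and Col4a6, whose ratio moved with the fraction, lie head to head on chromosome X, and the bases before their starts (GRCm38.p6, RefSeq) are shown for that pair, at chrX:141475169-141475384 on the plus strand and chrX:141474077-141474326 on the minus strand:

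Col4a5: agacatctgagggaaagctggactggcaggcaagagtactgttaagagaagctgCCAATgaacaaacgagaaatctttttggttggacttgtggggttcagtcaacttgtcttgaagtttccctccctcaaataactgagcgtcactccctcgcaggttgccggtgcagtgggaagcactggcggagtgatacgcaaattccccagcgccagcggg

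Col4a6: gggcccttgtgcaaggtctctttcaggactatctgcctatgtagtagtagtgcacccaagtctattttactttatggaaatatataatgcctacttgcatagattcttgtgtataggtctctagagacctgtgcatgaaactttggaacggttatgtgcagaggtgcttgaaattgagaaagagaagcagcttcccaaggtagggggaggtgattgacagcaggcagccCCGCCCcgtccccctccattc

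The run of Col4a5 ends 35 bases before its start, where an exon begins, and holds CCAAT at base 55. That of Col4a6 ends at its start and holds GGGCGG read on the other strand at base 230.

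In the Sox3 libraries all 7 ratios moved in opposite directions between the WT groups as labelled and between the cKO groups. The 4 that separated the groups of both genotypes were Col6a3/Col6a1, Col6a1/Col6a2, Col1a1/Col1a2 and Col4a5/Col4a6. Col6a3 to Col6a1 was 0.0600 ± 0.0117 in WT labelled THY1+ and 0.218 ± 0.0353 in WT labelled KIT+ cells, 0.262 ± 0.0267 in cKO THY1+ and 0.0605 ± 0.0135 in cKO KIT+ cells (SD, n = 3). Col6a1 to Col6a2 was 5.65 and 3.33 in the WT groups as labelled THY1+ and KIT+, and 2.95 and 5.31 in cKO THY1+ and KIT+ cells. Within each genotype the groups labelled THY1+ and KIT+ did not overlap in any of these 4 ratios, at an exact permutation p of 0.1, the smallest that 3 against 3 libraries allow. The WT groups overlapped in Col3a1/Col1a1 (exact permutation p = 0.2), although the cKO groups did not, and both pairs of groups overlapped in Col4a1/Col4a2 and Col4a3/Col4a4.

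**Figure D4:**
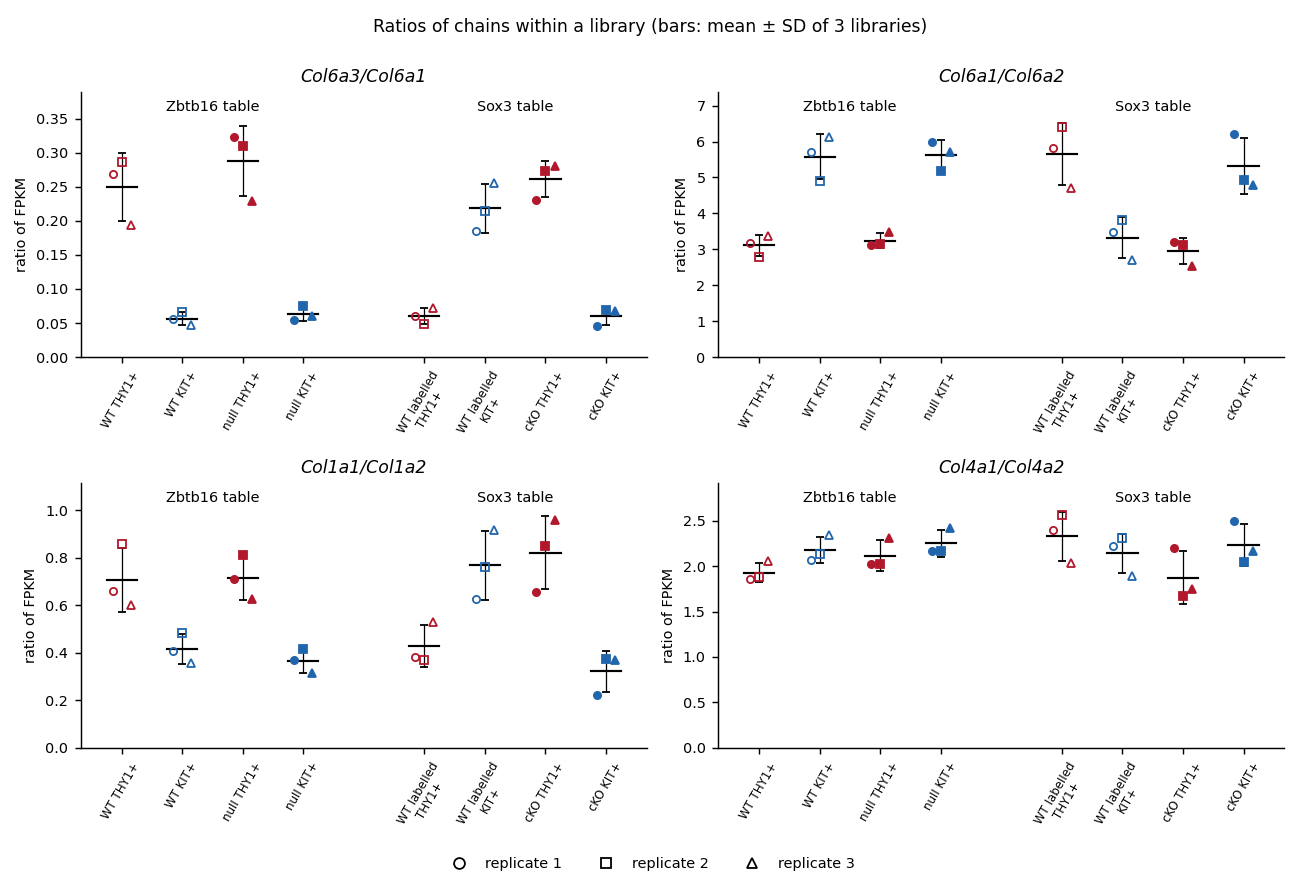
Ratio of FPKM between chains within each library, for Col6a3/Col6a1, Col6a1/Col6a2, Col1a1/Col1a2 and Col4a1/Col4a2 (markers as replicates 1, 2 and 3; open WT, filled null or cKO; red labelled THY1+, blue labelled KIT+), with the mean and SD of 3 libraries. Col6a3/Col6a1 lies between 0.193 and 0.323 in THY1+ and 0.0467 and 0.0745 in KIT+ libraries of the Zbtb16 table and, of the Sox3 WT groups, is low in the group labelled THY1+ and high in that labelled KIT+, while Col4a1/Col4a2 keeps means of 1.87 to 2.33 in all 8 groups.

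The last comparisons ask which collagens differ in cells of Sox3 cKO testes. Because the markers of the WT groups go against their labels, the leading contrast sets the 6 cKO libraries against the 6 WT libraries with both fractions weighted alike, which gives the same value whichever WT group is called THY1+. In that contrast 22 of 43 collagens were called, all of them higher in the cKO (51.2%, beside 10.3% of all genes tested). Of the 43, 38 had a fitted change above 0, with a median of 0.72 beside 0.02 over all genes tested. Leaving out each library in turn gave 20 to 25 collagens called, and the 8 shallower libraries of replicates 2 and 3 alone gave 5, Col17a1, Col18a1, Col23a1, Col25a1 and Col26a1, with a median over the collagens of 0.82. Somatic markers also differed between these libraries: of the 11 peritubular and stromal markers 1 was called higher in the cKO (median change 0.43), with 4 of 6 Leydig, 3 of 8 endothelial and 2 of 7 Sertoli cell markers, while the germ cell markers had a median change of -0.38. The peritubular and stromal markers summed to 122 to 218 FPKM in WT labelled THY1+, 197 to 413 in WT labelled KIT+, 261 to 603 in cKO THY1+ and 280.2 to 385 in cKO KIT+ cells. The part of these markers in the collagen changes was not tested. Summed over the members, collagen FPKM was 434, 251 and 397 in WT labelled THY1+, 369, 446 and 358 in WT labelled KIT+, 529.5, 929 and 486 in cKO THY1+ and 758, 709 and 925 in cKO KIT+ cells. Every cKO library lay above every WT library in this sum.

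All 6 basement membrane genes were called higher in the cKO, with log2 changes of 0.79 to 1.13. Col4a1 stood at 44.2, 24 and 46.2 FPKM in WT labelled THY1+, 35.3, 38.1 and 32.1 in WT labelled KIT+, 56.7, 78.0 and 45.4 in cKO THY1+ and 81.0, 75.3 and 114 in cKO KIT+ cells (log2 change 1.01, SE 0.185, limma adjusted p = 0.00459). Col4a2 stood at 18.5, 9.39 and 22.7 FPKM in WT labelled THY1+, 15.9, 16.5 and 17.0 in WT labelled KIT+, 25.7, 46.8 and 26.0 in cKO THY1+ and 32.5, 36.8 and 52.6 in cKO KIT+ cells (1.13, SE 0.223, limma adjusted p = 0.00609). For Col4a2 every cKO library was above every WT library, and for Col4a1 cKO THY1+ replicate 3 lay within the WT range. Col4a5 was changed by 1.09 (limma adjusted p = 0.0073) and stood at 13.9, 8.59 and 7.17 FPKM in WT labelled THY1+, 4.72, 6.98 and 3.88 in WT labelled KIT+, 7.85, 13.3 and 5.58 in cKO THY1+ and 28.5, 27.6 and 23.6 in cKO KIT+ cells. Its neighbour Col4a6 was changed by 1.12 (limma adjusted p = 0.00592) and stood at 1.76, 1.33 and 1.42 FPKM in WT labelled THY1+, 1.37, 2.04 and 1.16 in WT labelled KIT+, 2.17, 4.57 and 1.75 in cKO THY1+ and 3.92, 4.75 and 4.34 in cKO KIT+ cells. For both genes the cKO KIT+ libraries lay above all others except, for Col4a6, cKO THY1+ replicate 2, and the remaining cKO THY1+ libraries lay within or near the WT range. Col4a3 was changed by 0.79, at 1.48, 1.41 and 1.22 FPKM in WT labelled THY1+, 1.90, 2.97 and 1.51 in WT labelled KIT+, 2.60, 4.98 and 2.05 in cKO THY1+ and 2.43, 3.74 and 2.82 in cKO KIT+ cells. Col4a4 was changed by 1.05, at 4.81, 3.62 and 4.07 FPKM in WT labelled THY1+, 4.31, 6.84 and 4.63 in WT labelled KIT+, 6.83, 16.7 and 6.68 in cKO THY1+ and 7.33, 12.3 and 11.7 in cKO KIT+ cells. Of both genes cKO THY1+ replicate 2 was the highest library.

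Of the 6 beaded filament genes 5 were called higher, Col6a5 being the exception at 0.15. Col6a1 stood at 71.7, 40.7 and 67.3 FPKM in WT labelled THY1+, 36.9, 49.3 and 34.2 in WT labelled KIT+, 56.3, 92.7 and 44.1 in cKO THY1+ and 146, 106 and 171 in cKO KIT+ cells (0.94, limma adjusted p = 0.0095). Col6a2 stood at 12.3, 6.35 and 14.3 FPKM in WT labelled THY1+, 10.6, 12.9 and 12.6 in WT labelled KIT+, 17.6, 29.8 and 17.5 in cKO THY1+ and 23.5, 21.5 and 35.5 in cKO KIT+ cells, with the cKO libraries all above the WT libraries (1.06, limma adjusted p = 0.00664). Col6a3 stood at 4.29, 1.97 and 4.84 FPKM in WT labelled THY1+, 6.81, 10.6 and 8.73 in WT labelled KIT+, 13.0, 25.4 and 12.4 in cKO THY1+ and 6.57, 7.35 and 11.5 in cKO KIT+ cells (1.06, limma adjusted p = 0.0136). Of these chains Col6a1 was highest in cKO KIT+ and Col6a3 in cKO THY1+ cells.

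Of the 11 fibrillar genes 4 were called, Col1a2, Col3a1, Col5a2 and Col5a3, all higher. Col1a2 stood at 30.6, 13.7 and 35.9 FPKM in WT labelled THY1+, 33.2, 40.4 and 34.5 in WT labelled KIT+, 52.9, 113 and 51.5 in cKO THY1+ and 51.8, 64.0 and 84.4 in cKO KIT+ cells, without overlap between genotypes (1.15, SE 0.259, limma adjusted p = 0.00991). Col1a1, its partner chain, stood at 11.7, 5.09 and 19.0 FPKM in WT labelled THY1+, 20.8, 30.8 and 31.7 in WT labelled KIT+, 34.6, 95.8 and 49.4 in cKO THY1+ and 11.5, 23.8 and 31.3 in cKO KIT+ cells and was not called (0.99, limma adjusted p = 0.0631). Col3a1 stood at 133, 70.9 and 90.9 FPKM in WT labelled THY1+, 115, 129 and 88.2 in WT labelled KIT+, 146, 236 and 112 in cKO THY1+ and 242, 202 and 246 in cKO KIT+ cells (0.89, limma adjusted p = 0.00918). The type V chains Col5a2 and Col5a3, minor components that sit inside type I fibrils, were changed by 0.89 and 0.70, and the call of Col5a3 was lost when libraries were centred on their medians. Among fibril-associated genes Col9a2 (0.85) and Col20a1 (0.87) were called of 8, and none of the 3 network-forming genes nor Col7a1 was, by limma, with fitted changes of 0.12 to 0.51 and 0.22.

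Of the 4 transmembrane collagens 3 were called, as was Col26a1. Col23a1 stood at 3.51, 2.37 and 3.17 FPKM in WT labelled THY1+, 3.96, 4.22 and 3.44 in WT labelled KIT+, 6.66, 8.10 and 4.94 in cKO THY1+ and 9.30, 6.32 and 8.25 in cKO KIT+ cells (1.05, SE 0.15, limma adjusted p = 0.00257). Col25a1, whose shed ectodomain is known from amyloid plaques, stood at 2.71, 1.49 and 2.07 FPKM in WT labelled THY1+, 2.85, 3.19 and 3.02 in WT labelled KIT+, 3.99, 4.57 and 3.73 in cKO THY1+ and 7.35, 4.79 and 6.35 in cKO KIT+ cells (0.98, SE 0.151, limma adjusted p = 0.00311). Col17a1, a hemidesmosome collagen of epithelia, stood at 3.30, 2.26 and 3.09 FPKM in WT labelled THY1+, 2.98, 3.51 and 3.81 in WT labelled KIT+, 4.0, 5.84 and 4.28 in cKO THY1+ and 5.55, 5.69 and 6.33 in cKO KIT+ cells (0.72, SE 0.131, limma adjusted p = 0.00422). All 3 separated the genotypes without overlap and were called again with replicates 2 and 3 alone. The remaining transmembrane gene, Col13a1, was not called (0.46) and stood at 3.60, 2.44 and 3.23 FPKM in WT labelled THY1+, 6.59, 7.36 and 6.68 in WT labelled KIT+, 8.07, 7.45 and 8.79 in cKO THY1+ and 6.04, 3.25 and 6.27 in cKO KIT+ cells. Col26a1 stood at 2.10, 1.27 and 1.47 FPKM in WT labelled THY1+, 1.27, 1.36 and 0.974 in WT labelled KIT+, 2.57, 2.64 and 1.64 in cKO THY1+ and 4.40, 6.23 and 4.26 in cKO KIT+ cells (1.21, SE 0.177, limma adjusted p = 0.00267). Its cKO THY1+ libraries overlapped the WT libraries, and its cKO KIT+ libraries did not.

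Col15a1, which the study itself singled out for the Sox3 cKO, so that its direction is no independent evidence, had the largest averaged change of the members (log2 change 1.28, SE 0.288, limma adjusted p = 0.00986). It stood at 1.88, 1.27 and 2.63 FPKM in WT labelled THY1+, 3.62, 5.74 and 5.79 in WT labelled KIT+, 7.98, 25.1 and 8.49 in cKO THY1+ and 3.72, 5.02 and 5.71 in cKO KIT+ cells. The 3 cKO THY1+ libraries were the highest of the table, replicate 2 far above the other two, and the cKO KIT+ libraries lay among those of WT labelled KIT+. Against WT labelled THY1+, cKO THY1+ cells differed by 2.63 (limma adjusted p = 0.00049), in a contrast that also differs in sorting markers. Against WT labelled KIT+, the group whose Thy1 and Kit levels were like theirs, cKO THY1+ cells differed by 1.26 without overlap between the groups but past no threshold (limma adjusted p = 0.279). For cKO KIT+ cells the change was 1.31 against WT labelled THY1+ (limma adjusted p = 0.0373) and -0.06 against WT labelled KIT+ (limma adjusted p = 0.927). The call against WT labelled THY1+ was kept in only 1 of the 6 fits that left out a library. In the Zbtb16 table Col15a1 was likewise higher in THY1+ than in KIT+ cells of the WT. Its multiplexin relative Col18a1 stood at 7.79, 7.15 and 8.48 FPKM in WT labelled THY1+, 8.18, 9.52 and 8.97 in WT labelled KIT+, 7.69, 14.3 and 11.8 in cKO THY1+ and 9.95, 11.4 and 14.1 in cKO KIT+ cells and was not called (0.44). The 250 bases before the start of Col15a1, at chr4:47207762-47208011 on the plus strand of GRCm38.p6 (RefSeq), are shown because the study names the gene, and none of the motif letters searched occurs in them:

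Col15a1: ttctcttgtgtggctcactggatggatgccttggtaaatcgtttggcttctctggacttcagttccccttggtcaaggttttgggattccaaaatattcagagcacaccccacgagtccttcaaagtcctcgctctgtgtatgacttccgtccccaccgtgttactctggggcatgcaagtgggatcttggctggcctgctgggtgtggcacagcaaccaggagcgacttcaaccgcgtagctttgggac

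The other contrasts of the Sox3 table share libraries with each other, and those between groups of 1 label also set apart groups that differ in Thy1 and Kit. Between cKO THY1+ and WT labelled THY1+ cells 28 of 43 collagens were called (65.1%, beside 29.1% of all genes tested), 24 higher and 4 lower in the cKO. Highest were Col15a1 (2.63), Col1a1 (2.38), Col6a3 (2.18), Col6a6 (2.11), Col9a1 (1.77) and Col12a1 (1.62), and lower were Col14a1 (-2.32), Col11a1 (-1.26), Col22a1 (-0.73) and Col7a1 (-0.68). Leaving out WT labelled THY1+ replicate 2 left 17 called. Between cKO KIT+ and WT labelled KIT+ cells 20 were called (46.5%, beside 25.1%), 17 higher, led by Col14a1 (3.39), Col4a5 (2.37), Col11a1 (2.26), Col26a1 (1.95), Col6a1 (1.80) and Col4a6 (1.48), and 3 lower, Col2a1 (-0.79), Col6a6 (-0.65) and Col9a3 (-0.63). Between groups alike in Thy1 and Kit, cKO THY1+ against WT labelled KIT+ cells gave 0 of 43 collagens called by limma, beside 0.0707% of all genes tested. The collagens had a median of 0.53, and 17 had an unadjusted p under 0.05, beside 2793 of all 21212 genes tested. The other such contrast, cKO KIT+ against WT labelled THY1+ cells, gave 24 called (55.8%, beside 17% of all genes tested), all higher in the cKO, led by Col26a1 (1.57), Col25a1 (1.53), Col4a6 (1.48), Col4a5 (1.47), Col1a2 (1.40) and Col23a1 (1.37). Without WT labelled THY1+ replicate 2 the count was 15, and with replicates 2 and 3 alone it was 5. Other markers moved in this contrast: 5 of 6 Leydig (median 1.30), 5 of 8 endothelial (median 0.97) and 2 of 11 peritubular and stromal markers (median 0.64) were higher, and 2 of 5 germ cell markers (median -0.51) lower, in the cKO KIT+ cells. Their part in the collagen changes was not tested.

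Some members called in these contrasts remain to be given by library. Col6a6 stood at 0.557, 0.324 and 0.415 FPKM in WT labelled THY1+, 1.08, 1.30 and 0.951 in WT labelled KIT+, 2.19, 2.51 and 1.82 in cKO THY1+ and 0.615, 0.610 and 0.790 in cKO KIT+ cells. Col9a1, a chain of type IX collagen on fibril surfaces, stood at 0.235, 0.145 and 0.0584 FPKM in WT labelled THY1+, 0.567, 0.489 and 0.337 in WT labelled KIT+, 0.582, 0.985 and 0.600 in cKO THY1+ and 0.244, 0.200 and 0.333 in cKO KIT+ cells. Col12a1 stood at 0.183, 0.111 and 0.199 FPKM in WT labelled THY1+, 0.401, 0.365 and 0.411 in WT labelled KIT+, 0.732, 0.816 and 0.581 in cKO THY1+ and 0.237, 0.150 and 0.438 in cKO KIT+ cells. For all 3 the group labelled KIT+ was the higher of the WT groups and THY1+ the higher of the cKO groups. Col5a2 stood at 8.57, 4.22 and 4.50 FPKM in WT labelled THY1+, 11.6, 12.9 and 8.09 in WT labelled KIT+, 14.5, 21.3 and 11.5 in cKO THY1+ and 15.5, 10.6 and 14.5 in cKO KIT+ cells. Col8a1 stood at 0.227, 0.115 and 0.0290 FPKM in WT labelled THY1+, 0.0639, 0.171 and 0.0836 in WT labelled KIT+, 0.0929, 0.0711 and 0.0875 in cKO THY1+ and 0.256, 0.364 and 0.248 in cKO KIT+ cells. Col8a2, also of the network-forming class, stood at 1.89, 1.87 and 1.71 FPKM in WT labelled THY1+, 1.24, 1.73 and 0.983 in WT labelled KIT+, 1.87, 1.74 and 1.31 in cKO THY1+ and 1.18, 2.07 and 2.11 in cKO KIT+ cells. Col8a1 was highest in cKO KIT+ cells and did not overlap cKO THY1+ cells. Col9a3 stood at 5.27, 4.02 and 4.36 FPKM in WT labelled THY1+, 6.30, 4.91 and 5.65 in WT labelled KIT+, 6.27, 5.44 and 4.92 in cKO THY1+ and 3.04, 4.30 and 3.46 in cKO KIT+ cells. Col9a3 lay lower in cKO KIT+ than in cKO THY1+ cells without overlap. Col2a1 stood at 0.361, 0.441 and 0.321 FPKM in WT labelled THY1+, 0.403, 0.581 and 0.522 in WT labelled KIT+, 0.316, 0.605 and 0.521 in cKO THY1+ and 0.153, 0.268 and 0.338 in cKO KIT+ cells. Col22a1, a collagen of tissue junctions, stood at 5.61, 5.45 and 7.10 FPKM in WT labelled THY1+, 3.27, 4.43 and 3.91 in WT labelled KIT+, 2.87, 4.39 and 3.62 in cKO THY1+ and 3.92, 6.41 and 5.78 in cKO KIT+ cells.

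Genes that process, carry, cross-link, bind and break down collagens were read from a list of 54, of which 53 were found for the Zbtb16 libraries and 51 for the Sox3 libraries. In Zbtb16-null cells limma called 0 of the 53 in either fraction, with 9 at an unadjusted p under 0.05 in THY1+ and 10 in KIT+ cells. Over all 22374 genes tested, 3.98% and 0.259% were called in the THY1+ and KIT+ comparisons, and 5325 and 3863 had an unadjusted p under 0.05. Of the 53, 9 were fitted higher in null THY1+ and 49 in null KIT+ cells, beside 46.7% and 51% of all genes tested. Between WT KIT+ and THY1+ cells 4 were higher and 8 lower of the 53, a share near the 21.2% of all genes called. Higher in KIT+ cells were Pcolce, which enhances removal of the procollagen tail (1.87), the protease inhibitor Timp1 (1.2), the collagen-degrading protease Ctsk (1.18) and Leprel4 (0.94). Lower were Lair1, an immune cell collagen receptor (-4.08), the gelatinase Mmp9 (-2.05), the integrin chain Itga1 (-1.75) and Timp2 (-1.51). In the Sox3 cKO, averaged over fractions, 16 of 51 were called higher and 1 lower, beside 10.3% of all genes called, in the contrast where 4 of 6 Leydig, 3 of 8 endothelial and 2 of 7 Sertoli cell markers were also higher. The part of those cells in the values was not tested. Of the list, 4 of 6 chaperone and export genes were higher, including Serpinh1, the collagen chaperone HSP47 (mean 69.2 FPKM in WT and 120 in cKO libraries, log2 change 0.73, limma adjusted p = 0.0101). The largest changes were those of Creb3l1, a transcription factor of the secretory pathway (1.2), the collagen receptor Ddr2 (0.99), the prolyl hydroxylase relative Leprel2 (0.89) and the membrane protease Mmp14 (0.89), and Pcolce2 was lower (-0.63).

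**Figure D5:**
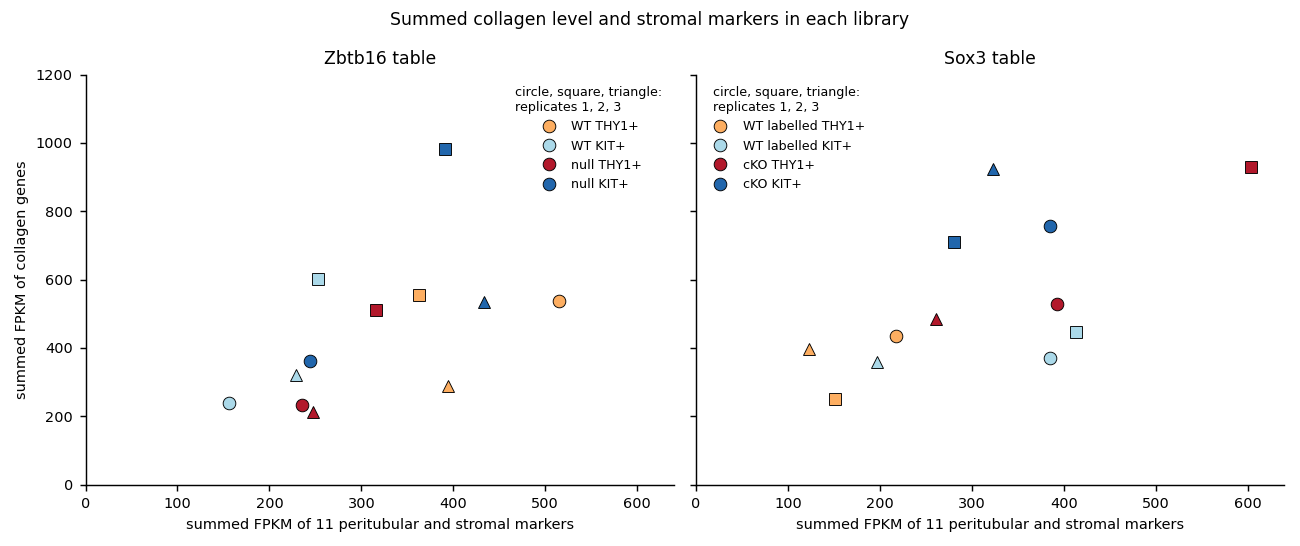
Summed FPKM of the collagen genes against summed FPKM of 11 peritubular and stromal markers in each library (circle, square and triangle for replicates 1, 2 and 3), in the Zbtb16 table (left) and the Sox3 table (right). In the Zbtb16 table null KIT+ replicate 2 stands highest for collagens, at 981, with stromal sums of null KIT+ cells between 244 and 433; in the Sox3 table the 6 cKO libraries lie at 486 to 929 and the 6 WT libraries at 251 to 446 for collagens.

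In the plot of collagen against stromal sums of the Zbtb16 table, WT THY1+ cells had stromal sums of 363 to 515 FPKM and collagen sums of 287 to 555 FPKM. WT KIT+ cells had stromal sums of 156 to 253 and collagen sums of 239 to 600.2. Null THY1+ cells had 235 to 316 and 212 to 511, and null KIT+ cells 244 to 433 and 362 to 981.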

How the data were processed

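Total RNA of sorted cells was depleted of ribosomal RNA by the authors and made into strand-specific libraries, and single reads were aligned with Novoalign to mm10 and summarised per gene. The deposited values are FPKM, computed by the authors over gene models, and comparisons in the study were made with DESeq2. Whether strand was used in counting is not given in the sources used here. Depth was estimated from the step that a single read makes in the FPKM of a library (74.3 to 77.8% of low values were whole reads within 0.01), and it limits the Sox3 table most, where replicates 2 and 3 are shallower. No count test was run.

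FPKM were tested with limma 3.58.1 (R 4.3.3) on log2(FPKM + 0.1), which understates changes of low genes, over genes with a mean of at least 0.1 FPKM (22374 and 21212 genes). Each table was fitted on its own with 4 group means, moderated with a trend and robustly, and p-values were adjusted by Benjamini-Hochberg over all genes tested. A call needs an adjusted p of at most 0.05 and at least 1.5-fold. The fit was tested on simulated data. Chain ratios were tested by exact permutation. Values were tabulated with Python 3.11.15, pandas 2.3.3 and numpy 2.4.6 and drawn with matplotlib 3.10.9. Col19a1 was under the filter.

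Groups follow the labels. Same-numbered libraries of null and WT cells deviated together, with correlations of 0.133, 0.344 and 0.475 in THY1+ and 0.449, 0.52 and 0.362 in KIT+ cells, so that these comparisons are also given with the replicate number as a block. The pairing comes from these correlations, since the labels give only a number. The block was fitted over all 12 libraries, with the effect of each number shared by both fractions and genotypes. The classes, gene lists and members were chosen with earlier results of these data known. Values by library were given for Col15a1, for the highest member of each class, for chains that assemble together, and for up to 6 called members with the largest rise and fall in a comparison, and up to 4 handling genes were named per direction. Alternatives were another pseudocount (0.01 or 1), no filter or a mean of at least 1 FPKM, centring on library medians, only the groups compared, the replicate block, leaving out each library, and, chosen after seeing the data, fewer replicates and ratios without 1 library.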

Additional observations from a re-analysis of the deposited data

How the results depend on the processing

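Counts are of collagens called by limma, beside the number reported. For null against WT THY1+ cells (1), a mean of at least 1 FPKM gave 0, the replicate block 3, centring on library medians 3, replicates 1 and 3 alone 0, and leaving out a library 1 to 2, the 2 without WT THY1+ replicate 3. For KIT+ cells (1), pseudocount 1, a mean of at least 1 FPKM, only the groups compared, and replicates 1 and 3 alone each gave 0, as did leaving out any library (0 to 0). The interaction (0) gave 15 with the replicate block and 0 to 0 without a library. For KIT+ against THY1+ WT cells (9), pseudocount 1 gave 4, a mean of at least 1 FPKM 5, the replicate block 14 and leaving out a library 5 to 12. In these comparisons the filter at 1 FPKM removed Col28a1 (mean 0.523 FPKM), Col7a1 (0.488), Col9a1 (0.402) and Col12a1 (0.366). Those genes were not tested there, so their calls were neither kept nor lost. By label, same-numbered libraries share only a number. Across fractions of the Zbtb16 series they correlated at 0.07 and -0.028 in pairs with WT THY1+ replicate 1, and at 0.266 to 0.519 in the other pairs. In the Sox3 series same-numbered libraries correlated at -0.119 to 0.348. In all, 11 of 12 libraries of the Zbtb16 series and 9 of 12 of the Sox3 series correlated best with their own number.

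In the Sox3 table the averaged contrast (22) gave 5 with replicates 2 and 3 alone and 20 to 25 without a library. KIT+ against THY1+ cKO cells (13) gave 4 and 10 to 17. The WT groups as labelled (10) gave 5 with pseudocount 1, 4 with replicates 2 and 3 alone and 6 to 11. The cKO against WT labelled THY1+ (28) gave 17 to 27, and against WT labelled KIT+ (20) 7 with replicates 2 and 3 alone and 13 to 18, the 13 without WT labelled KIT+ replicate 1. The cKO KIT+ against WT labelled THY1+ contrast (24) gave 5 and 15 to 23, and cKO THY1+ against WT labelled KIT+ (0) 0 to 0. Fewer samples enter these fits. Centring moved the median of all genes from -0.03 to 0.14 for KIT+ against THY1+ WT cells and from 0.02 to -0.11 for the averaged contrast.

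Over all genes, null against WT THY1+ cells gave 565 calls with pseudocount 1 and 1980 with the replicate block against 890, KIT+ cells 513 with the block against 58, the interaction 2756 with the block against 7, and the averaged contrast 597 with replicates 2 and 3 alone against 2188. Col15a1 in cKO against WT labelled KIT+ cells (-0.277 to 0.112 without a library) turned to 0.0473 without WT labelled KIT+ replicate 2, 0.0537 without replicate 3 and 0.112 without cKO KIT+ replicate 1. The log2 ratio Col4a3/Col4a4, KIT+ minus THY1+ in the Zbtb16 table, lay at -0.0703 to 0.0392 without a library and turned to 0.0142, 0.0392, 0.00381 and 0.0281 without WT THY1+ replicate 3, WT KIT+ replicate 2, null THY1+ replicate 3 and null KIT+ replicate 2. The cause was not tested.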
